A study of Mus musculus with 5 samples.

Results

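The genes described here encode 7 receptors and adhesion molecules by which blood-forming cells home to the bone marrow, stay in it and leave it: Cxcr4, Cd69, S1pr1, Ccr9, Itga4, Cd44 and Selplg. They were chosen by name, and their probesets are 18 of the 45037 measured, or 7 of 18193 genes. RNA came from CD11A+ and CD11A- subfractions of phenotypic hematopoietic stem cells (HSCs), sorted from the bone marrow of male C57/Bl6 mice. CD11A is the alpha chain of the integrin LFA-1, encoded by Itgal. Both subfractions were Lin-, KIT+ and SCA-1+ cells that also carried CD150, CD27 and EPCR and lacked CD34 and FLK2, and differed by design only in surface CD11A. CD11A+ HSCs were measured on 2 Affymetrix arrays and CD11A- HSCs on 3, each with amplified RNA of 1011 to 2293 double-sorted cells from 1 to 2 mice. On day A, with mice aged 8 to 12 weeks, CD11A+ replicate 1 was sorted beside CD11A- replicate 2. On day B, with mice aged 10 weeks, CD11A+ replicate 2 was sorted beside CD11A- replicate 3. A separate sort of mice aged 6 weeks, day C, gave CD11A- replicate 1.

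HSCs are held in the marrow by CXCR4, the receptor for the chemokine CXCL12 that marrow stroma makes, and by adhesion through the integrin VLA-4, whose alpha chain is the product of Itga4. S1PR1 senses the lipid sphingosine-1-phosphate (S1P), which is abundant in blood, and draws cells out of tissue. In lymphocytes CD69 binds S1PR1 and takes it off the cell surface, so that activated cells stay. PSGL-1, encoded by Selplg, and CD44 bind selectins and hyaluronan and slow cells on vessel walls, and CCR9 guides lymphocytes and their precursors to the gut and thymus by its ligand CCL25.

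All values below are deposited log2 values of a probeset, and each gene is given first by the probeset with the highest mean. Differences are CD11A+ minus CD11A- HSCs. None of the probesets (0%) passed an adjusted p of 0.05 in limma's test over all of them, and none of the 7 members did. At an unadjusted p under 0.05 the test gave 921 of 18193 genes (5.06%) and 1 of the 7 members. The number of arrays limits the precision, and the smallest p that an exact permutation test of 2 against 3 arrays can give is 0.1. Whether any mouse gave cells to more than 1 array of a group is not labelled, and these tests measure only the spread between arrays. Neither test takes account of the sort days that the arrays share, so the differences within days are given beside them. Itgal had 8.49 and 5.67 in CD11A+ HSCs, against 5.15, 5.43 and 5.27 in CD11A- HSCs, so that the gene behind the sort was above the CD11A- arrays in both CD11A+ arrays but by little on day B. Of the gate markers, Kit, Slamf1, Procr and Cd27 had means of 9.21 to 12.07 over the arrays, and Ly6a was not analysed here. Slamf1, the gene of CD150, had 9.24 and 7.91 in CD11A+ HSCs, against 9.69, 9.75 and 9.45 in CD11A- HSCs. Its groups did not overlap (10.4% of all genes were lower in this way), while those of Kit, Procr and Cd27 did. Flt3, the gene of FLK2, was higher in CD11A+ HSCs by 0.55 on day A and 1.11 on day B (25.3% of all genes were higher on both days), with overlap. Of 9 measured granulocyte and monocyte genes, Camp, Ngp, Ltf, S100a8 and S100a9 were highest on both arrays of day A, with Camp at 11.72 and 6.81 in CD11A+ HSCs, against 5.63, 9.67 and 5.36 in CD11A- HSCs. Mpo was high only on CD11A+ replicate 1, with 8.72 and 4.59 in CD11A+ HSCs, against 4.58, 4.45 and 4.54 in CD11A- HSCs, and Elane was between 4.65 and 5.37 on every array. In bulk RNA, fewer cells of a type and less RNA per cell cannot be told apart.

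Promoter windows from RefSeq (GRCm38.p6, 250 bases before to 50 after the start) are shown for Cxcr4, the member that varied most between arrays, and for Ccr9, the member with only dim probesets. CG dinucleotides are in capitals, and each sequence reads 5′ to 3′ along its gene. The Cxcr4 window lies at chr1:128592250-128592549 on the minus strand and the Ccr9 window at chr9:123766961-123767260 on the plus strand.
Cxcr4: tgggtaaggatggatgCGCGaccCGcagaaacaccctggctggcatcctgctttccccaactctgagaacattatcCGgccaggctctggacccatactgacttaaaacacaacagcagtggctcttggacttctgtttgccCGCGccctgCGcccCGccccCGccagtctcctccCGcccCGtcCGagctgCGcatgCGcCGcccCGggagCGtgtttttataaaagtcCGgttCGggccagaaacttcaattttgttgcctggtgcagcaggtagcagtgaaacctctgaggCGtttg
Ccr9: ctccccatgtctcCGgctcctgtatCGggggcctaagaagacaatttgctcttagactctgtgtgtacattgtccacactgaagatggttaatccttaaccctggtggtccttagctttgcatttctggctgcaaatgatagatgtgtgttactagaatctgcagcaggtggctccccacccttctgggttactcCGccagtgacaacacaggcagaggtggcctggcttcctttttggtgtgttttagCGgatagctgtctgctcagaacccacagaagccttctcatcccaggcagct
The Cxcr4 window held 20 CG, a number that 26.5% of the 32851 windows in the table reached, and the Ccr9 window held 4, which 68.6% reached. Those of Itga4 and Cd44 held 10 and 6. The letters TGANTCA, to which the AP-1 factors of the Fos and Jun families bind and which read the same on both strands, were in 0 of these 4 windows, against 7.81% of all windows. Windows of the other members were not analysed here.

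Cxcr4 separated 1 CD11A- sort from every other array rather than the subfractions. Its single probeset (1448710_at) had 8.35 and 7.07 in CD11A+ HSCs, against 10.12, 7.50 and 7.54 in CD11A- HSCs. The value of 10.12 belonged to replicate 1, the array of day C with the youngest mice and the fewest cells, and the other CD11A- arrays lay within the range of the CD11A+ arrays. CD11A+ HSCs averaged 7.71 ± 0.91 (SD, n = 2), against 8.39 ± 1.5 (SD, n = 3) for CD11A- HSCs, a difference of -0.68 (standard error 0.88, adjusted p = 1.00 from limma; exact permutation test, two-sided, p = 0.8). Within day A CD11A+ HSCs were higher by 0.85, within day B the difference was -0.47, and leaving out CD11A- replicate 1 turned the sign of the whole comparison, to 0.19. Immediate early genes, which cells switch on within minutes of stress or stimulation, were on average also highest on the day C array. Zfp36 and Atf3 were exceptions. They had 9.58 and 5.18 there, against 9.82 on CD11A- replicate 2 and 5.48 on CD11A+ replicate 1. The mean over 10 of them was 8.26 and 7.32 in CD11A+ HSCs, against 9.24, 8.69 and 7.61 in CD11A- HSCs. Fos alone had 9.60 and 6.30 in CD11A+ HSCs, against 11.72, 9.96 and 5.81 in CD11A- HSCs. Egr1 had 12.03 on the day C array, little above its 11.94 on CD11A- replicate 2. Unlike Cxcr4, 7 of the 10 were lower in CD11A+ HSCs on both days (28.0% of all genes) and 0 higher (25.3% of all genes). For 3 of them both CD11A+ arrays were below every CD11A- array (10.4% of all genes). On the CD11A- array of day A the mean over the 10 was 8.69, while Cxcr4 had 7.50 there. The part of immediate early genes in the Cxcr4 value was not tested, and day, age and cell number of the day C array cannot be told apart.

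Cd69 was the one member whose groups did not overlap. Its probeset (1428735_at) had 7.22 and 6.69 in CD11A+ HSCs, against 5.46, 5.68 and 4.96 in CD11A- HSCs. The lowest CD11A+ array thus lay above the highest CD11A- array, which came from the other sort day. CD11A+ HSCs averaged 6.96 ± 0.37 (SD, n = 2), against 5.37 ± 0.37 (SD, n = 3) for CD11A- HSCs, a difference of 1.59 or 3.01-fold (standard error 0.29; exact permutation test, two-sided, p = 0.1). The adjusted p from limma was 1.00, and it ranged from 0.176 to 1.00 over the alternatives tried. The lowest was without CD11A+ replicate 2, where the lone CD11A+ array is assumed to vary like the CD11A- arrays. The unadjusted p of this gene in limma, without sort day in the fit, was 0.00166. With sort day as a fixed or a random block in limma, its adjusted p was 0.592 or 0.301. Its mean over the arrays was 6.00, below the median of all genes, 6.62. CD11A+ HSCs were higher by 1.54 within day A and by 1.73 within day B, and leaving out any 1 array gave differences of 1.32 to 1.85. Unlike Itgal, with 3.06 and 0.40 on the same days, Cd69 differed by about as much on day B as on day A. Of 9 measured granulocyte and monocyte genes 7 were, like Cd69, higher in CD11A+ HSCs on both days (25.3% of all genes). The other 2, Elane and Csf1r, were lower on both days (28.0% of all genes). The mean over the 9 was 9.68 and 6.70 in CD11A+ HSCs, against 6.12, 8.34 and 6.12 in CD11A- HSCs. T cell transcripts, from cells that can carry CD69, overlapped between the groups: the mean over 5 genes was 5.37 and 5.11 in CD11A+ HSCs, against 5.23, 5.23 and 5.30 in CD11A- HSCs. The mean over 4 B cell genes was 6.52 and 5.67 in CD11A+ HSCs, against 6.00, 5.82 and 5.83 in CD11A- HSCs, and the highest Ms4a1 value was 6.67, on CD11A+ replicate 1. The T cell genes were dim, and 0 of these 5 had a mean at or above the median of all genes. The gate left out cells stained for CD3, CD4, CD8, B220, GR1, MAC1 or TER119, and cells were double sorted. How many such cells remained was not tested. The part of these transcripts in the Cd69 value was not tested.

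**Figure D1:**
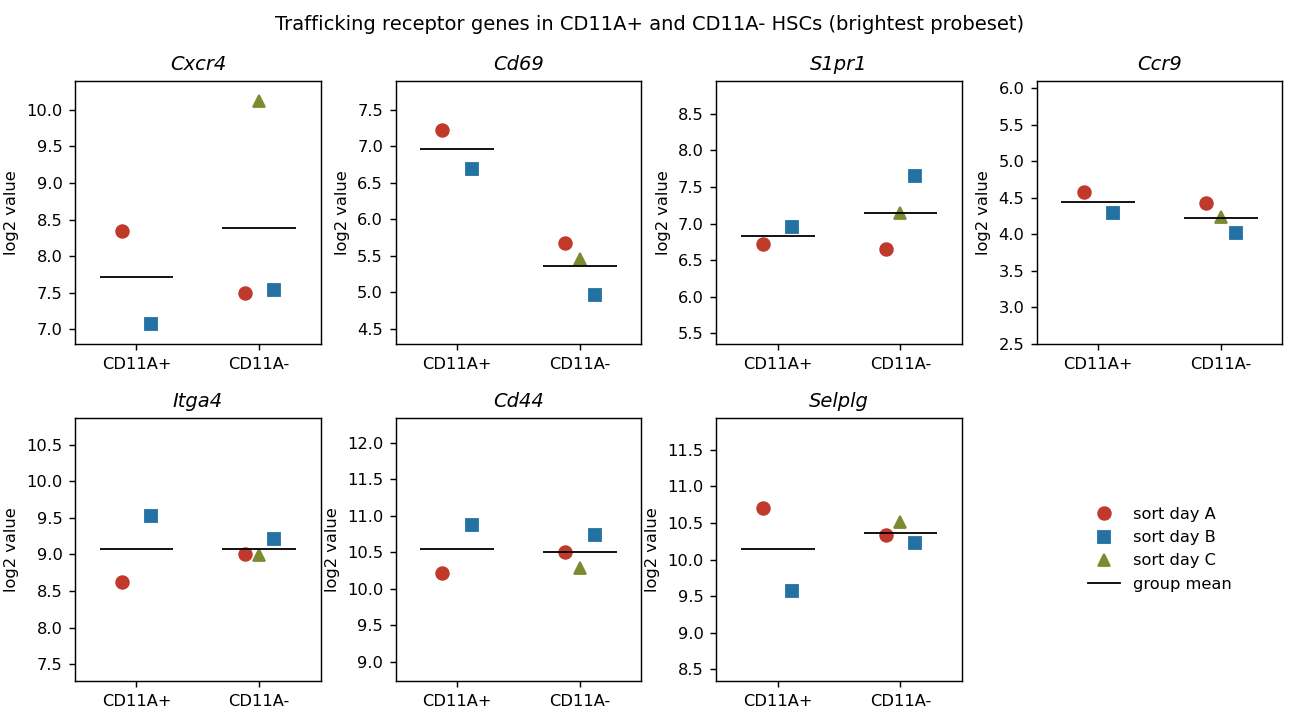
Log2 value of the brightest probeset of each member on every array, with CD11A+ HSCs left and CD11A- HSCs right, coloured by sort day, and a line at each group mean. The panels span the same 3.6 log2 units but are centred separately. Only Cd69 has both CD11A+ arrays (7.22 and 6.69) above all CD11A- arrays, and Cxcr4 has 1 CD11A- array, of day C, at 10.12.

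S1pr1, whose product CD69 binds, had 6.72 and 6.95 in CD11A+ HSCs, against 7.15, 6.65 and 7.65 in CD11A- HSCs (1423571_at). The highest values were those of CD11A- replicates 1 and 3, while the CD11A- array of day A lay below both CD11A+ arrays. CD11A+ HSCs averaged 6.84 ± 0.16 (SD, n = 2), against 7.15 ± 0.50 (SD, n = 3) for CD11A- HSCs, a difference of -0.32 (standard error 0.32, adjusted p = 1.00 from limma; exact permutation test, two-sided, p = 0.5). Day A gave a difference of 0.07 and day B one of -0.70, while Cd69 differed by 1.54 on day A and by 1.73 on day B. It was between -0.57 and -0.07 when any 1 array was left out.

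Every probeset of Ccr9 was dim in both subfractions. The 5 of them had means over the arrays of 3.57 to 4.31, and 7.52% to 24.2% of all probesets were dimmer. This is a brightness of probes, which depends on their sequence, and the deposited values carry no detection call. The brightest (1427419_x_at), whose suffix marks probes that can match other transcripts, had 4.58 and 4.29 in CD11A+ HSCs, against 4.24, 4.43 and 4.01 in CD11A- HSCs. The groups overlapped, with a difference of 0.21 (standard error 0.21, adjusted p = 1.00 from limma; exact permutation test, two-sided, p = 0.4). The differences of the other Ccr9 probesets were 0.08 to 0.25, within a range of 0.62 or less over the arrays. When the 5 probesets were averaged the groups no longer overlapped, CD11A+ HSCs being higher by 0.15. The averages were 3.968 and 4.066 in CD11A+ HSCs, against 3.906, 3.76 and 3.928 in CD11A- HSCs, so that the groups lay close together. The adjusted p from limma was 0.99 (exact permutation test, two-sided, p = 0.2), and the share of all genes without overlap is not given for such averages.

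Itga4 was measured by 5 probesets whose differences ran from 0.00 to 1.11. On the brightest (1436037_at) CD11A+ HSCs had 8.62 and 9.52, against 8.99, 9.01 and 9.21 in CD11A- HSCs. The CD11A+ arrays were thus the lowest and the highest, and the group averages were 9.07 ± 0.64 (SD, n = 2) for CD11A+ HSCs and 9.07 ± 0.12 (SD, n = 3) for CD11A- HSCs. This is a difference of 0.00 (standard error 0.30; limma's adjusted p = 1.00; exact permutation test, two-sided, p = 1), made of -0.39 on day A and 0.31 on day B. The next probeset (1456498_at) had the same signs, with -0.36 and 0.20. The dimmest (1427615_at, with 11.3% of all probesets dimmer) had 4.68 and 4.14 in CD11A+ HSCs, against 3.22, 3.27 and 3.41 in CD11A- HSCs, a difference of 1.11 (standard error 0.22, adjusted p = 1.00 from limma) with no overlap. Its unadjusted p in limma was 0.00264, and CD11A+ HSCs were higher on it by 1.41 on day A and 0.73 on day B. What this dim probeset binds in these cells was not tested. The remaining 2 probesets had differences of 0.17 and 0.52. The beta chains that pair with this alpha chain also overlapped between the groups: Itgb1 had 6.95 and 8.07 in CD11A+ HSCs, against 7.67, 6.79 and 8.04 in CD11A- HSCs, and Itgb7 had 7.47 and 7.86 in CD11A+ HSCs, against 7.24, 7.04 and 7.69 in CD11A- HSCs. Itgb1 was lowest on both arrays of day A.

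Cd44 varied little, by 0.26 to 0.84 over the arrays on any probeset. On the brightest of its 4 probesets (1423760_at) CD11A+ HSCs had 10.21 and 10.87, against 10.28, 10.50 and 10.74 in CD11A- HSCs, again with the CD11A+ arrays at both ends. This is a difference of 0.03 (standard error 0.27; limma's adjusted p = 1.00; exact permutation test, two-sided, p = 0.9), with -0.29 within day A and 0.13 within day B. The sign turned to -0.08 without CD11A- replicate 1 and to -0.30 without CD11A+ replicate 2. A second bright probeset (1434376_at) had 10.40 and 10.33 in CD11A+ HSCs, against 10.06, 10.34 and 10.15 in CD11A- HSCs. The 5 arrays lay within 0.34 log2 units of each other on it. The 2 dimmer probesets had differences of 0.09 and -0.06.

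Selplg (1449127_at) spread more between the CD11A+ arrays than between the groups. It had 10.71 and 9.57 in CD11A+ HSCs, against 10.52, 10.33 and 10.23 in CD11A- HSCs, so that the CD11A+ arrays were the highest and the lowest of all. CD11A+ HSCs averaged 10.14 ± 0.81 (SD, n = 2), against 10.36 ± 0.15 (SD, n = 3) for CD11A- HSCs, a difference of -0.22 (standard error 0.35, adjusted p = 1.00 from limma; exact permutation test, two-sided, p = 0.8). The within-day differences had opposite signs, with 0.38 on day A and -0.66 on day B. Leaving out CD11A+ replicate 1 gave -0.79, and leaving out CD11A+ replicate 2 gave 0.35.

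Of the 7 genes, 2 (Cd69 and Ccr9) were higher in CD11A+ HSCs on both sort days, where 25.3% of all genes were, and 0 were lower on both, where 28.0% of all genes were. Groups without overlap were found for 1 of 7 members with CD11A+ HSCs higher (Cd69; 8.56% of all genes) and for 0 with CD11A+ HSCs lower (10.4% of all genes). The median difference of the members was 0.00, and that of all genes was -0.01. For 5 of the 7, all but Cd69 and Ccr9, the sign differed between days A and B, where 46.7% of all genes had no common sign. With 7 genes, these counts are no result about the members as a group.

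**Figure D2:**
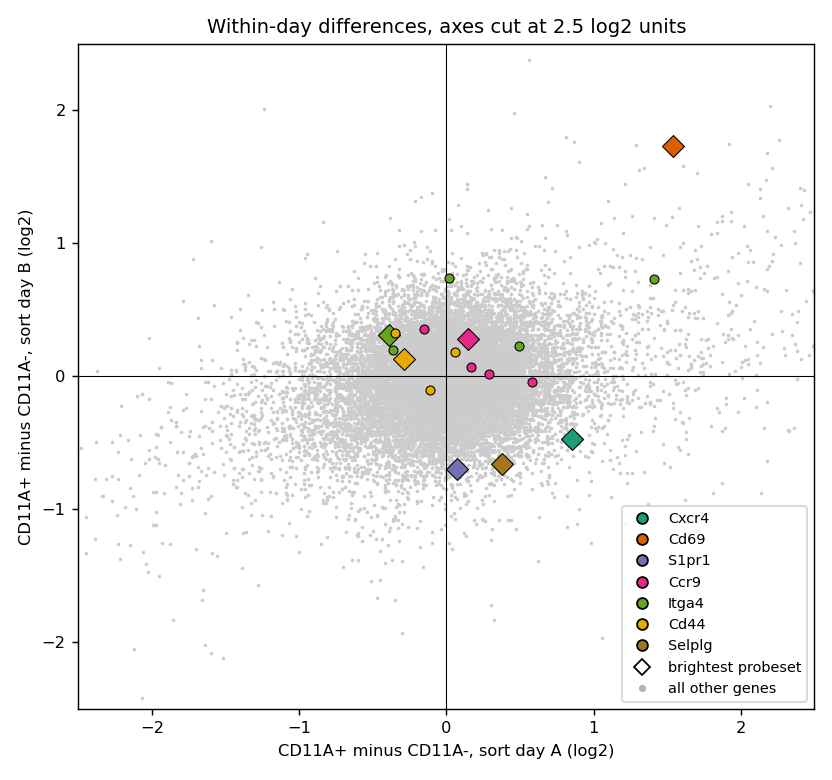
Difference between CD11A+ and CD11A- HSCs on sort day A (x axis) and sort day B (y axis), in log2 units, for all 18 probesets of the members (diamonds for the brightest, circles for the others) and for all genes (grey). The axes end at 2.5, which leaves out 64 genes. Cd69 lies at 1.54 and 1.73, away from the other members, whose brightest probesets lie within 0.85 of 0 on both days.

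Lists of related genes, taken from general knowledge, place the members among their pathways, and 0 of their genes had an adjusted p under 0.05 in limma. The counts that follow stand beside shares over all genes of 25.3% higher and 28.0% lower on both days, and of 8.56% above and 10.4% below without overlap. Of 26 chemokine and chemoattractant receptors, 23 were measured and none had a mean at or above the median of all genes. The median difference of these 23 was 0.21, with 10 higher and 4 lower in CD11A+ HSCs on both days and groups without overlap for 5 above and 1 below. Ackr3, a scavenger receptor for the Cxcr4 ligand named here after its values were seen, had 4.35 and 4.71 in CD11A+ HSCs, against 3.51, 3.94 and 3.99 in CD11A- HSCs.

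The 13 genes of S1P signalling and egress had a median difference of 0.10, with 4 higher and 5 lower on both days. S1pr2, a receptor that opposes migration, had 7.66 and 7.43 in CD11A+ HSCs, against 7.22, 7.25 and 7.24 in CD11A- HSCs. Its unadjusted p in limma was 0.128, and its probeset has the x_at suffix of probes that can match other transcripts. S1pr4, a receptor of blood cells, differed by -0.21, and Sgpl1, which degrades S1P, by -0.23. Klf2, a transcription factor that drives S1pr1 in T cells, was also named after its values were seen. It had 4.95 and 5.24 in CD11A+ HSCs, against 7.16, 5.68 and 5.58 in CD11A- HSCs, and was highest on the day C array, as Cxcr4 was.

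Among 26 integrins and their activators the median difference was -0.04, with 9 higher and 8 lower on both days. Itga2b, the alpha chain of the platelet integrin, had 10.17 and 8.80 in CD11A+ HSCs, against 8.41, 8.39 and 8.52 in CD11A- HSCs. Itgb2, the beta chain that pairs with CD11A, differed by 0.57, and Itgb7 by 0.34. The mean over 4 megakaryocyte genes, Itga2b among them, was 9.15 and 8.07 in CD11A+ HSCs, against 7.44, 7.94 and 8.08 in CD11A- HSCs, and the part of such transcripts in the Itga2b value was not tested.

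Of 22 measured genes of selectins, selectin ligand synthesis and vascular adhesion, 5 were higher and 7 lower on both days, with a median of -0.04. Here 6 had an unadjusted p under 0.05 in limma (5.06% of all genes), and groups without overlap were seen for 2 above (8.56% of all genes) and 4 below (10.4% of all genes). Jam3, a junction molecule of HSCs and endothelium, had 6.65 and 7.43 in CD11A+ HSCs, against 8.27, 8.09 and 8.12 in CD11A- HSCs. St3gal6, a sialyltransferase that helps make selectin ligands on carriers such as PSGL-1, had 6.55 and 6.71 in CD11A+ HSCs, against 7.94, 7.61 and 7.39 in CD11A- HSCs. Cd34, a sialomucin that the gate selects against, had 11.07 and 9.87 in CD11A+ HSCs, against 9.28, 9.76 and 9.35 in CD11A- HSCs. The differences were -1.12 for Jam3, -1.02 for St3gal6 and 1.01 for Cd34, with an exact permutation p of 0.1 each and an adjusted p of 1.00 each from limma. The list was assembled with earlier results of these arrays known. Of 7 HSC genes, 4 were lower in CD11A+ HSCs on both days (28.0% of all genes) and 3 were mixed, their median difference was -0.78 with a range from -1.65 for Hoxb5 to 0.04 for Gata2, and 0 passed limma's adjusted threshold. Their part in the values of Jam3 and St3gal6 was not tested. Fut7, the fucosyltransferase that completes selectin ligands, was named after its values were seen and differed the other way, by 0.89. Its differences were 1.39 on day A and 0.13 on day B, and its mean of 5.98 was below the median of all genes, 6.62.

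Of 12 measured genes of CD44 and hyaluronan, 3 were higher and 2 lower on both days, with a median of 0.03. Msn, the protein moesin that ties CD44 to the cytoskeleton, differed by 0.29 and by no more than 0.31 within a day. Of 32 measured genes of chemotaxis signalling, 8 were higher and 9 lower on both days, with a median of 0.04. Was, which drives actin polymerization, differed by -0.63, Ric8a, a chaperone of G proteins, by -0.46, and Dock8, a guanine nucleotide exchange factor, by 0.43, each with an adjusted p of 1.00 from limma. The probeset of Ric8a has the x_at suffix, as that of S1pr2 does.

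**Figure D3:**
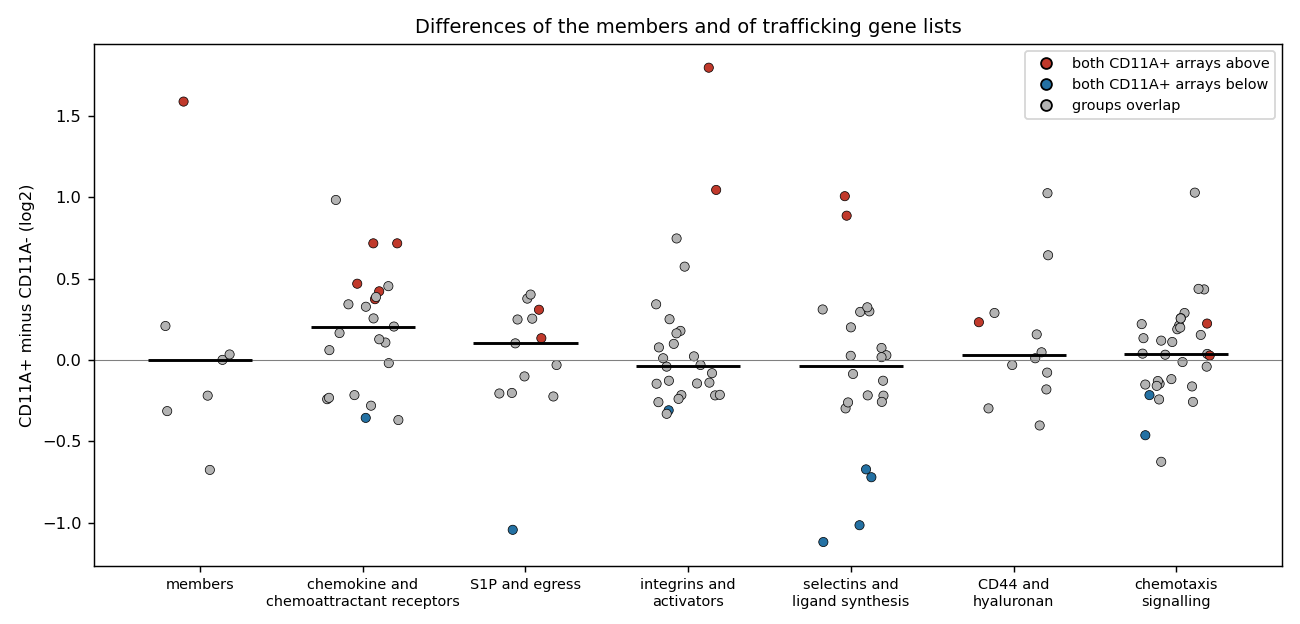
Difference between CD11A+ and CD11A- HSCs in log2 units for the members and for 6 lists of related genes, 1 point a gene and a line at each median. Red and blue points are genes with both CD11A+ arrays above or below every CD11A- array. The medians lie between -0.04 and 0.21, and of the members only Cd69, at 1.59, is red.

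Genes were also ordered by how close their profile over the 5 arrays, centred on its mean, came to that of each member, as a root mean square distance in log2 units. Genes chosen this way share the pattern of the member largely by that choice, so the shared pattern is no separate finding. Nearest to Cxcr4 were 4930503L19Rik (0.36), Tspan32 (0.41) and Fosb (0.42). Fosb, an immediate early gene of the AP-1 family, had 5.10 and 3.88 in CD11A+ HSCs, against 6.85, 5.13 and 3.90 in CD11A- HSCs, with its highest value on the day C array. It is also among the immediate early genes averaged above. Tspan32, a tetraspanin of blood cells, had 9.40 and 8.26 in CD11A+ HSCs, against 10.46, 9.11 and 8.61 in CD11A- HSCs. Nearest to Cd69 were Rad51c (0.22), Hells (0.24) and Hmgb2 (0.27), which act in DNA repair, chromatin remodelling and chromatin structure. Hells had 9.79 and 8.78 in CD11A+ HSCs, against 7.93, 8.48 and 7.23 in CD11A- HSCs, and Rad51c had 7.87 and 6.86 in CD11A+ HSCs, against 5.88, 6.38 and 5.72 in CD11A- HSCs. For both, as for Cd69, the CD11A- array of day A was the highest of its group. The other members varied by a standard deviation of 0.21 to 0.43 over the arrays, and the nearest genes of each lay within 0.03 to 0.06. They were 1110002L01Rik for S1pr1, Ddn for Ccr9, Hif1an for Itga4, Aldh1a3 for Cd44 and Rhoc for Selplg.

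**Figure D4:**
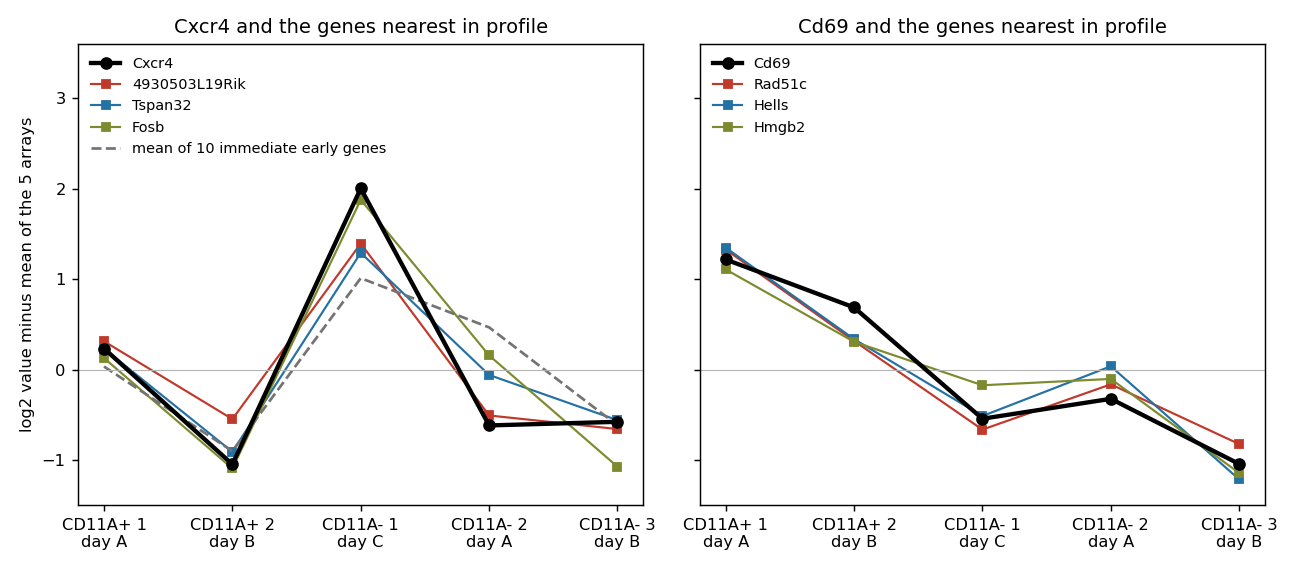
Log2 values minus the mean of the 5 arrays for Cxcr4 (left) and Cd69 (right) with the 3 genes nearest in profile, and for the mean of 10 immediate early genes (dashed, left). Lines join the values of a gene and show no order among arrays. Cxcr4 and Fosb peak on CD11A- replicate 1 of day C, and Cd69, Rad51c and Hells are higher on both CD11A+ arrays than on any CD11A- array. The nearest genes were chosen for their closeness to the member, from which such shared features largely follow. Fosb is also part of the dashed mean.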

How the data were processed

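RNA of CD11A+ (n = 2) and CD11A- (n = 3) HSCs was hybridised to Affymetrix mouse arrays. The deposited values are log2 signals, 1 for each probeset, and RMA is the method in the submitters' notes. Its version is not given in the sources used here, nor is the set of arrays it was run on. A second normalization, by the Gene Expression Commons, appears in the supplement. Normalization makes arrays alike, so their medians of 5.55 to 5.62 do not measure quality. For the Gapdh control, 3-prime probes exceeded 5-prime probes by 1.91 to 2.80. A further 40 deposited columns are of samples outside the labels and were not used, and other populations were not analysed here.

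Of 45101 probesets 64 controls were dropped. Annotation of the platform gives 1 gene for 34945, and the probeset with the highest mean stood for each of 18193 genes. Group differences were fitted with limma 3.58.1 (R 4.3.3; functions lmFit and eBayes; Benjamini-Hochberg adjustment over all probesets). Single genes also had exact permutation tests over the 5 arrays. No test is stated for these arrays in the study's methods, and the methods' t-test is one its supplement gives for another comparison. The fit was tested on simulated data. The members and lists were chosen with earlier results of these data known. Named were all members with their probesets, up to 3 genes a list (the largest differences of one sign on both sort days, with a mean no lower than the median gene, 6.62), and 3 genes nearest in profile to each member. Alternatives were the second deposited table (0 values differ), blocks for sort day or replicate number, omission of single arrays, quantile and median scaling, weights for arrays, a trend with intensity, removal of dim probesets, averaging of probesets and the methods' t-test.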

Additional observations from a re-analysis of the deposited data

How the results depend on the processing

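None of the 7 members passed an adjusted threshold under any alternative. Cd69, Ccr9 and S1pr1 kept the sign of their difference in every alternative run for them (1.32 to 1.85 for Cd69, 0.06 to 0.35 for Ccr9 and -0.57 to -0.07 for S1pr1). Ccr9 has no value after the filter on dim probesets. Day C holds only CD11A- replicate 1, so a fixed block for sort day gives that array no weight. The differences with that block thus equal those without that array. For the other members the cause of any further turned sign was not tested. Cxcr4 was 0.19 with sort day as a fixed block and ran from -1.32 to 0.19 when 1 array was left out. Cd44 was -0.08 with sort day as a fixed block and -0.019 as a random one, and ran from -0.30 to 0.36 when 1 array was left out. Selplg ran from -0.79 to 0.35, and Itga4, which had no sign, from -0.45 to 0.45. With the mean of a gene's probesets, 2 members in place of 1 had both CD11A+ arrays above every CD11A- array. In that setting 3 members in place of 2 were higher on both sort days, Itga4 being added with 0.23 on day A and 0.44 on day B. The shares over all genes are not given for that setting. Over all probesets the counts called higher ran from 0 to 15 and those called lower from 0 to 5 when 1 array was left out, the highest without CD11A+ replicate 2, a fit that assumes the lone CD11A+ array to vary like the CD11A- arrays. The fit without CD11A+ replicate 1 shares this limit. The methods' t-test at its threshold, an unadjusted p under 0.001, called 7 of the 45037 probesets higher and 12 lower, 0 of them a member. After Benjamini-Hochberg adjustment the same test called 0 probesets. With the replicate number as a block, on 4 arrays, 0 probesets were called and Cxcr4 was -1.10. Deviations from the group means correlated at 0.12 for arrays of number 1 and at -0.56 for those of number 2. They correlated at 0.56 and 0.59 for arrays sorted on days A and B. With 2 CD11A+ arrays the deviations of these mirror each other, so the values of number 2 and day A are not separate. By the labelled sort days, the numbers do not pair the arrays. Ccr9 is limited by probes near the low end of the signal.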
